A study of Homo sapiens with 4 samples.

Results

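The genes studied here encode subunits of condensin I, condensin II and the SMC5/6 complex: SMC2, SMC4, NCAPD2, NCAPD3, NCAPG, NCAPG2, NCAPH, NCAPH2, SMC5 and SMC6. They were taken by gene symbol from a table of 60048 human genes, all 10 were found once, and all 10 passed the filter on low values, as did 39464 genes in all. EU-seq gave their nascent RNA: in this assay the uridine analogue 5-ethynyl uridine (EU) is taken up by living cells and the RNA made during the labelling time is captured and sequenced. The cells were HCT116, a human colorectal carcinoma line, of genotype RAD21-mAC in every library, and EU was given at 0.5 mM during 20 min. The control group (2 libraries) had DMSO. The auxin group (2 libraries) was treated during 3 h with indole-3-acetic acid at 0.5 mM, which depletes RAD21, the kleisin subunit of cohesin. Cells without the tag were not analysed here, so effects of auxin itself and of RAD21 loss cannot be told apart. Nothing in the labels says that the libraries of a group came from separate cultures, so p-values measure the spread between these libraries, which may be technical.

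Condensins and SMC5/6 belong to the same family of ring-shaped ATPases as cohesin. Each holds a pair of long SMC proteins that dimerise at a hinge, a kleisin that closes the ring at the ATPase heads, and further subunits that bind the kleisin. Both condensins use SMC2 and SMC4 and differ in the kleisin and its HEAT-repeat partners: NCAPH with NCAPD2 and NCAPG in condensin I, NCAPH2 with NCAPD3 and NCAPG2 in condensin II. Condensin II is nuclear throughout the cell cycle and condensin I reaches chromosomes after the nuclear envelope breaks down, and together they shape mitotic chromosomes. SMC5/6 acts in DNA repair and replication and restrains the transcription of extrachromosomal DNA.

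The deposited values are named read counts but are not whole numbers. They were taken as a scaled signal per gene, and the depth in reads is unknown. Library totals on the deposited scale lay between 61135244 and 93113007, and the values printed here, called scaled signal, were scaled between libraries by trimmed means of M-values (TMM). Log2 fold changes are thus relative to the bulk of genes, and a change shared by most genes would not show in them. RAD21 itself had a scaled signal of 5154 and 7190.2 in control and 5893 and 6264 in auxin (limma log2 fold change -0.0029, adjusted p = 0.998), which does not check the labels, since depletion acts on the protein. Of 8 colon epithelial markers, the median level was 173 per kb of gene span and the lowest was that of KRT20, a keratin of differentiated enterocytes, at 3.38 per kb. The 14 markers of leukocytes, fibroblasts, endothelium, hepatocytes and neurons had a median of 2.16 per kb and reached 45.6 per kb (COL1A1, a collagen gene). The summed level of the colon markers was 5108 to 5713 per kb in control and 4533 to 4717 per kb in auxin. KRT18 and KRT19, at 2051.5 and 2063 per kb, weigh most in this sum. CDH1 (log2 fold change 0.55, limma adjusted p = 0.0578) and CDX2 (0.42, limma adjusted p = 0.5445) lay above 0, and the rest of the colon markers below. The summed level of the other markers was 76.7 to 101 per kb in control and 97.3 to 121 per kb in auxin. No marker of either list was at 0 in every library, and the part of the markers in the results was not tested. Over all tested genes, 289 had a limma adjusted p under 0.05.

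All 10 genes were transcribed in every library. Per kb of span, introns included, NCAPH2 had the highest level, 262 ± 33.4 (SD over the 4 libraries), and SMC2 the lowest, 30.2 ± 8.08. The median over 17767 tested protein-coding genes was 63.2 per kb. Between these ends stood SMC4 (157 ± 29.2), NCAPD2 (157 ± 17.5), NCAPH (107 ± 12.6), SMC5 (106 ± 16.6), NCAPG2 (86.7 ± 17.2), NCAPG (83.6 ± 21.8), NCAPD3 (76.3 ± 16.6) and SMC6 (38.0 ± 5.71). In this order the libraries of neighbouring genes did not overlap at 3 places, between NCAPH2 and SMC4, between NCAPD2 and NCAPH, and between NCAPD3 and SMC6. The other 6 pairs of neighbours overlapped and were not separated by the spread between libraries. The 2 SMC subunits that both condensins share thus stood far apart, SMC4 near the top and SMC2 at the bottom.

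**Figure D1:**
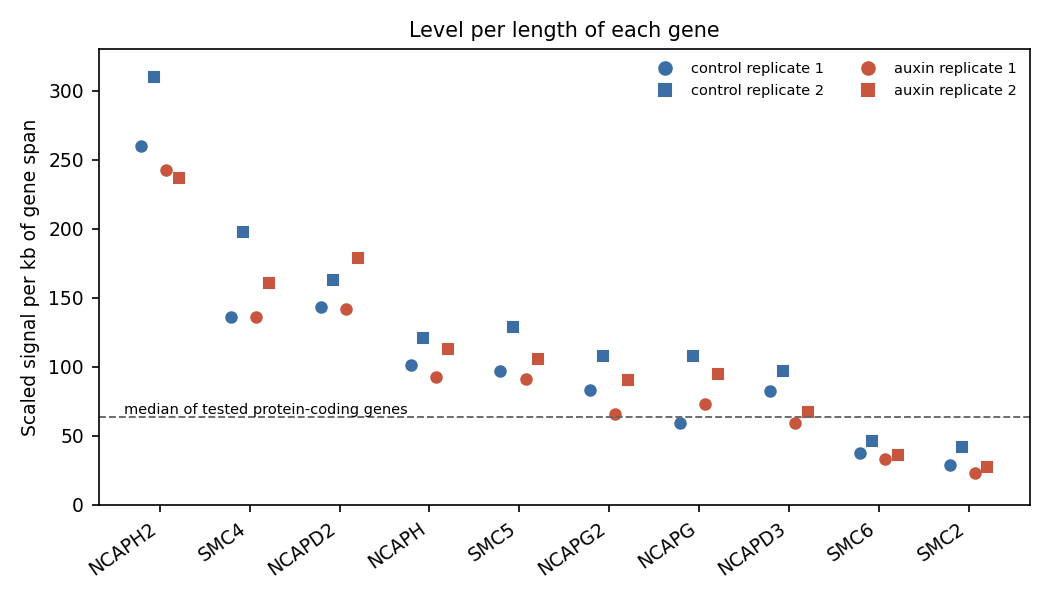
Scaled signal per kb of gene span (vertical axis, linear) for each of the 10 genes, ordered by their mean, with 1 point per library; blue is control, red is auxin, circles are replicate 1 and squares replicate 2. NCAPH2 stands above the rest, SMC6 and SMC2 lie below the dashed line, which marks the median of tested protein-coding genes (63.2 per kb), and most neighbours overlap.

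The promoters found for the condensin genes share a sequence feature that the choice of genes did not use. RefSeq (GRCh38.p14) windows from 250 bases before to 50 bases after the start were matched by symbol for 9 of the 10 genes, all but NCAPH2, taking the start nearest the 5′ end of the gene in the table. Searched on both strands, TTTGAA or TTTAAA, the letters of the cell cycle genes homology region (CHR) found in promoters of genes active in G2 and mitosis, occurred in all 7 condensin promoters and in neither SMC5 nor SMC6, against 24.0% of 35116 RefSeq promoters of the same length. CCAAT, the letters bound by NF-Y, occurred in 3 of the 9 promoters (34.6% of all promoters). GCGGGAA, an E2F-type sequence, occurred in 2 of the 9 (6.55%). Such a match describes letters only and is not a binding site. The 5 windows from 150 bases before to 10 bases after the start are printed 5′ to 3′ on the strand of the gene, with matches to the 3 motifs in either orientation in capitals: SMC2 and NCAPD3, the genes with the lowest values in auxin relative to control, NCAPD2 and NCAPG, whose group means were closest to each other, and SMC5, which has no match.
SMC2, chr9:104094159-104094318, plus strand: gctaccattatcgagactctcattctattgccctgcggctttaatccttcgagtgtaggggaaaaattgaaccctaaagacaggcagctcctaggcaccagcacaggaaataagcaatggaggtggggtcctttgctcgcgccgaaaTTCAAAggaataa
NCAPD3, chr11:134223958-134224117, minus strand: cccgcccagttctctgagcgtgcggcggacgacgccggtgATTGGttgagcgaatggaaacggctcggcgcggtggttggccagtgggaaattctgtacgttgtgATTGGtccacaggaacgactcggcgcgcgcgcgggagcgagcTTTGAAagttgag
NCAPD2, chr12:6493952-6494111, plus strand: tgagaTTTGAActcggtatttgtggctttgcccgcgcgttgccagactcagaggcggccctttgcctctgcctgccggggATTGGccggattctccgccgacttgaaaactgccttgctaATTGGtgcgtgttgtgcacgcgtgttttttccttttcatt
NCAPG, chr4:17810829-17810988, plus strand: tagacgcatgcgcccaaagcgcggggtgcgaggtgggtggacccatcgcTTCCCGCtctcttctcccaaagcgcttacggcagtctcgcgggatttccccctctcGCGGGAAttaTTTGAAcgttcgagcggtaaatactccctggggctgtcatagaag
SMC5, chr9:70258828-70258987, plus strand: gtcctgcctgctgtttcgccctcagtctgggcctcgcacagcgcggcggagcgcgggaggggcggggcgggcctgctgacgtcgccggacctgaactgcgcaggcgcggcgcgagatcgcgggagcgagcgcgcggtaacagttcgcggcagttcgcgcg
In NCAPD3 and SMC2 the CHR letters begin 3 bases before the start, in NCAPG 35 bases before it and 10 bases after the beginning of an E2F-type match, and in NCAPD2 145 bases before it. In SMC4 they begin 75 bases before the start. The only CHR letters of NCAPH and NCAPG2 begin after the start, at transcribed base 33 and base 36, in this order. NCAPD2 held 4 CCAAT matches in the whole window, more than any other of these genes, and NCAPD3 held 2. The CHR letters were thus found in SMC2 and NCAPD3, where both auxin libraries lay below both controls, and in NCAPD2 and NCAPG, where they did not. SMC6, whose auxin libraries also lay below both controls, held no match to the 3 motifs, and NCAPH2 had no window.

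The comparison asked of these genes was whether their nascent signal differed after 3 h of auxin, in a study whose title concerns how cohesin bears on pause release and elongation. No gene of the 10 passed the threshold (limma adjusted p under 0.05, Benjamini and Hochberg adjustment over 39464 genes), where 0.732% of tested genes did. At an unadjusted p under 0.05 there was 1, NCAPD3, against 10.2% of tested genes. The log2 fold changes ran from -0.50 (NCAPD3) to 0.061 (NCAPD2) with a median of -0.22, against a median of 0.0089 over all tested genes. Below 0 lay 8 of the 10, against 48.7% of tested genes. In 4 genes, SMC2, NCAPD3, NCAPH2 and SMC6, both auxin libraries lay below both control libraries, which held for 19.6% of tested genes. In no gene of the 10 did both auxin libraries lie above both controls (18.6% of tested genes). The 10 genes were chosen with earlier results of these data known, so these counts are a description.

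**Figure D2:**
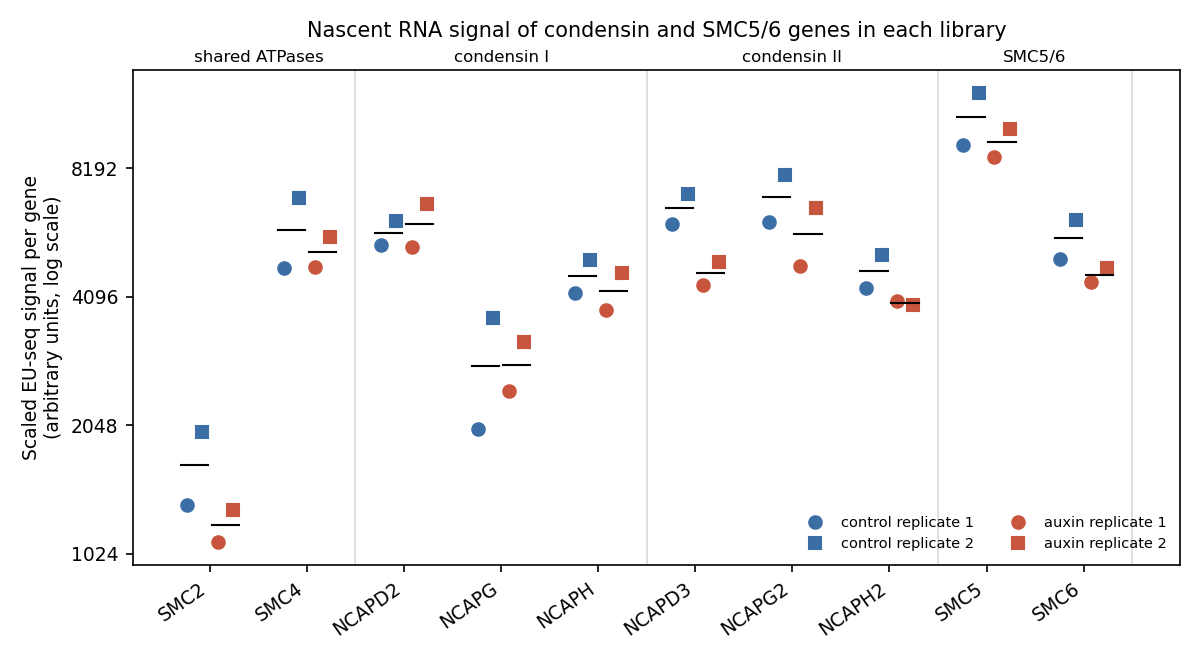
Scaled signal of each gene (vertical axis, log scale) in the 4 libraries, grouped by complex; blue is control, red is auxin, circles are replicate 1, squares replicate 2 and black lines the mean of each group. The auxin points lie below both control points for SMC2, NCAPD3, NCAPH2 and SMC6 and are interleaved with them for the other 6 genes.

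SMC2 and SMC4, the ATPase pair of both condensins, differed in how they compared. SMC2 (ENSG00000136824, GRCh38 chromosome 9, 104094260 to 104141409, plus strand) had a scaled signal of 1335 and 1973 in control and 1091 and 1300.3 in auxin. Both auxin libraries were lower, but the higher of them lay close under control replicate 1. The log2 fold change was -0.45 (SE 0.21, 95% confidence interval -0.91 to 0.022, limma adjusted p = 0.52), and it ranged from -0.72 with control replicate 1 left out to -0.16 with control replicate 2 left out. SMC4 (ENSG00000113810, chromosome 3, 160399650 to 160434953, plus strand) had 4789.9 and 6979 in control and 4806 and 5659.5 in auxin. Its auxin libraries both lay between the controls. The log2 fold change was -0.15 (SE 0.18, interval -0.55 to 0.26, limma adjusted p = 0.906), and it turned to 0.12 without control replicate 2 and was -0.41 without control replicate 1.

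The subunits found only in condensin I showed no common direction. NCAPD2 (ENSG00000010292, chromosome 12, 6494102 to 6531955, plus strand), a HEAT-repeat subunit, had 5421.5 and 6159.6 in control and 5373 and 6768 in auxin. The auxin libraries lay on either side of the controls, and the log2 fold change was 0.061 (SE 0.15, interval -0.27 to 0.40, limma adjusted p = 0.97), or -0.021 without control replicate 1 and -0.11 without auxin replicate 2. NCAPG (ENSG00000109805, chromosome 4, 17810979 to 17844865, plus strand), the other HEAT-repeat subunit, had 2003 and 3651 in control and 2469 and 3209 in auxin. Its controls differed most of all 10 genes and enclosed both auxin libraries, so that the log2 fold change of 0.058 (SE 0.25, interval -0.50 to 0.62, limma adjusted p = 0.987) became -0.37 without control replicate 1, -0.13 without auxin replicate 2 and 0.49 without control replicate 2. NCAPH (ENSG00000121152, chromosome 2, 96335766 to 96377091, plus strand), the kleisin, had 4190.5 and 5000.1 in control and 3814 and 4663 in auxin, groups that overlap. Its log2 fold change was -0.12 (SE 0.16, interval -0.47 to 0.23, limma adjusted p = 0.918), or 0.0089 without control replicate 2 and 0.034 without auxin replicate 1. The median of condensin I with the shared ATPases was -0.12. It was -0.37 when control replicate 1 was left out, -0.26 for auxin replicate 2, 0.12 for control replicate 2 and 0.034 for auxin replicate 1.

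All 3 subunits found only in condensin II had lower means with auxin, though none passed the threshold. NCAPD3 (ENSG00000151503, chromosome 11, 134150113 to 134223967, minus strand), the counterpart of NCAPD2, had 6088 and 7132 in control and 4374 and 4935 in auxin. The gap between the groups was wider than the difference within either group. The log2 fold change was -0.50, or 0.705 times the control level (SE 0.14, interval -0.82 to -0.19, limma unadjusted p = 0.00515, adjusted p = 0.186), and it lay between -0.61 and -0.39 with any 1 library left out. NCAPG2 (ENSG00000146918, chromosome 7, 158631169 to 158704804, minus strand), the counterpart of NCAPG, had 6139 and 7911 in control and 4846 and 6631 in auxin. The groups overlap, since auxin replicate 2 was above control replicate 1, and the log2 fold change of -0.30 (SE 0.18, interval -0.70 to 0.10, limma adjusted p = 0.671) lay between -0.52 and -0.064 with 1 library left out. NCAPH2 (ENSG00000025770, chromosome 22, 50508224 to 50524780, plus strand), the kleisin, had 4305 and 5134 in control and 4012 and 3916 in auxin. Both auxin libraries lay below both controls, close to control replicate 1, with a log2 fold change of -0.25 (SE 0.14, interval -0.57 to 0.074, limma adjusted p = 0.656) that was -0.12 without control replicate 2. The median of condensin II with the shared ATPases was -0.30. It was -0.12 when control replicate 2 was left out, -0.26 for auxin replicate 1, -0.47 for control replicate 1 and -0.52 for auxin replicate 2.

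SMC5 and SMC6, the ATPase pair of SMC5/6, had lower means with auxin, and neither passed the threshold. SMC5 (ENSG00000198887, chromosome 9, 70258978 to 70354873, plus strand) had 9303 and 12341 in control and 8709 and 10146 in auxin, which overlap. Its log2 fold change was -0.19 (SE 0.15, interval -0.53 to 0.15, limma adjusted p = 0.807) and ranged from -0.38 with control replicate 1 left out to 0.015 with control replicate 2 left out. SMC6 (ENSG00000163029, chromosome 2, 17665447 to 17800195, minus strand) had 5023 and 6212.5 in control and 4437 and 4794 in auxin, which do not overlap. Its log2 fold change was -0.28 (SE 0.15, interval -0.61 to 0.052, limma adjusted p = 0.601), with -0.42 and -0.12 when control replicate 1 or 2, in this order, was left out. The median of the pair was -0.23, and ran from -0.40 to -0.054 with 1 library left out.

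Control replicate 2 was above control replicate 1 in all 10 genes, by 0.18 (NCAPD2) to 0.87 (NCAPG) on the log2 scale, against 50.1% of tested genes. Auxin replicate 2 was above auxin replicate 1 in 9 of the 10, all but NCAPH2, against 51.2% of tested genes. The median difference between the controls over the 10 genes was 0.34, larger than the median change with auxin, and was 0.00079 over all tested genes. With 1 library left out, 5 of the genes (SMC4, NCAPD2, NCAPG, NCAPH and SMC5) changed sign, and SMC2, NCAPD3, NCAPG2, NCAPH2 and SMC6 stayed below 0. Of the genes listed below, control replicate 2 was the higher control in 11 of 13 condensin regulators and mitotic chromosome partners. The same held for 5 of 7 SMC5/6 subunits and loaders and 4 of 5 other SMC-type ATPases. The part of this difference in the results was not tested.

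**Figure D3:**
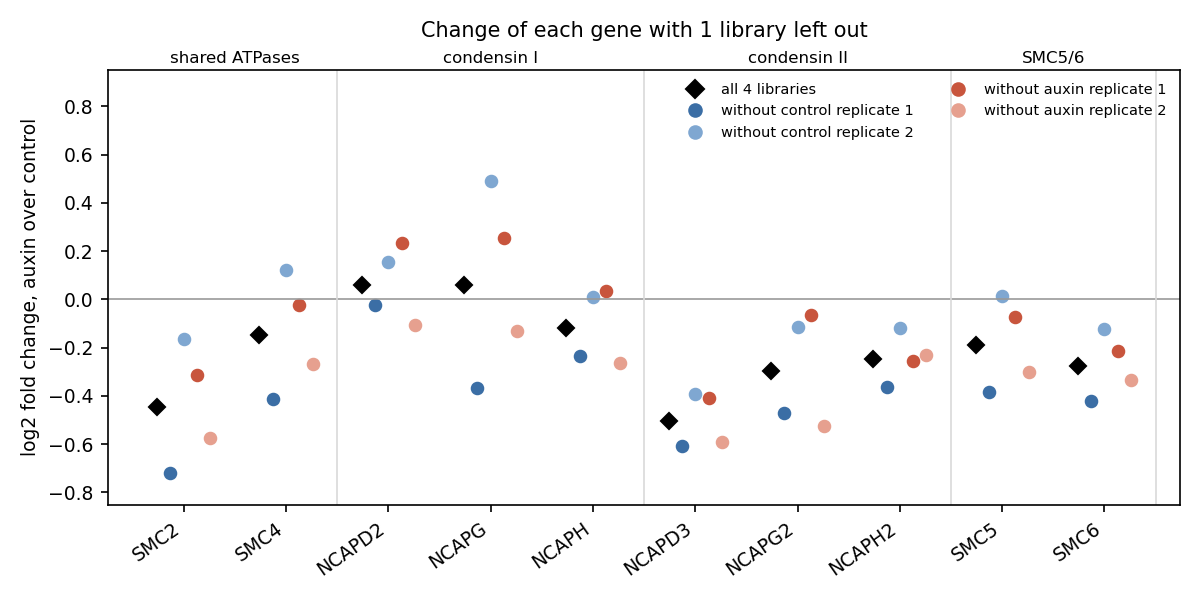
Log2 fold change of auxin over control (vertical axis) for each gene with all 4 libraries (black diamonds) and with 1 library left out (coloured circles). The values for NCAPD3 stay between -0.61 and -0.39, while those for NCAPG spread from -0.37 to 0.49.

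Ratios of subunits within a library need no scaling between libraries and remove a difference that both genes share. The log2 ratio of SMC2 to SMC4 was -1.84 and -1.82 in control and -2.14 and -2.12 in auxin. Replicates of a group thus differed by far less than the groups, by 0.30 between the means (-1.83 ± 0.014 and -2.13 ± 0.012, SD, n = 2 each; two-sided exact permutation p = 0.333). The log2 ratio of NCAPD3 to NCAPD2 was 0.17 and 0.21 in control and -0.30 and -0.46 in auxin, a difference of -0.57 (two-sided exact permutation p = 0.333). The log2 ratio of NCAPG2 to NCAPG was 1.62 and 1.12 in control and 0.97 and 1.05 in auxin, groups that do not overlap although control replicate 2 lay near them (difference -0.36, two-sided exact permutation p = 0.333). For NCAPH2 to NCAPH the ratios were 0.039 and 0.038 in control and 0.073 and -0.25 in auxin, on both sides of the controls (exact permutation p = 1). For SMC5 to SMC6 they were 0.89 and 0.99 in control and 0.97 and 1.08 in auxin, which overlap (exact permutation p = 0.667). With 2 libraries against 2 the smallest possible p is 0.333, and adjusted over the 5 ratios the smallest value was 0.556, so this test could not reach the threshold whatever the values. These ratios are values of unequal length genes, and only their change between libraries is compared. How often the groups lie apart for other pairs of genes was not counted. The SMC2 to SMC4 ratio has a further limit, since signal of SMC4 cannot be told apart from that of AC079594.1, a gene described below that spans it.

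**Figure D4:**
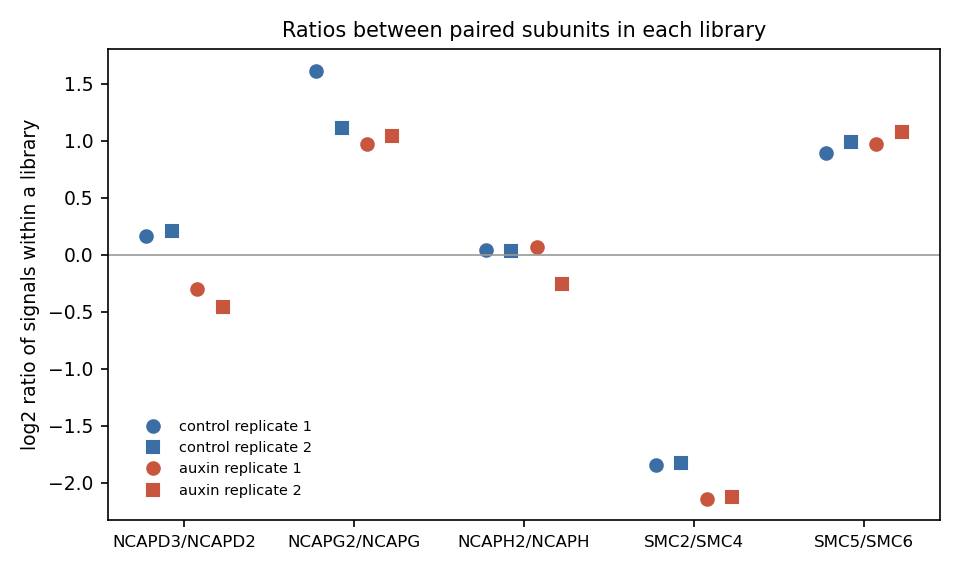
Log2 ratio of the signals of paired subunits (vertical axis) within each library, from the deposited values; blue is control, red is auxin, circles are replicate 1, squares replicate 2. Control and auxin points are apart for NCAPD3 over NCAPD2, NCAPG2 over NCAPG and SMC2 over SMC4, and overlap for the other 2 pairs.

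The spans of 7 of the 10 genes overlap 14 other genes of the table, 8 of them on the opposite strand, and whether the counting used strand is not given in the sources used here. SMC4 lies on the plus strand inside AC079594.1, a minus-strand gene whose span also holds IFT80 and part of TRIM59. In the 4 libraries IFT80, SMC4 and TRIM59 had a summed signal equal to 93.0% to 94.7% of that of AC079594.1, and IFT80 and TRIM59, which share its strand, one equal to 33.1% to 42.1%. These sums count TRIM59 whole, although it runs past the end of AC079594.1, and so are not shares of that gene. Signal of SMC4 and of AC079594.1 cannot be told apart here. None of the 14 genes was called (0.732% of tested genes were), and 13 had a log2 fold change below 0 (48.7% of tested genes). These genes share spans with the members, so they may hold the same signal and are not separate observations. Within NCAPD3, the opposite-strand lncRNA gene AP001775.2 had a log2 fold change of -0.49 (limma adjusted p = 0.47), near that of NCAPD3. Within NCAPD2, the small Cajal body RNA gene SCARNA10 and the lncRNA gene AC006064.5, which overlap, had the same values in each library and a log2 fold change of -0.60 (limma adjusted p = 0.424), against 0.061 for NCAPD2.

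SMC6 needs a further remark, since its span in the table reaches 46.4 kb beyond its RefSeq 5′ end and there encloses GEN1, which encodes a Holliday junction resolvase on the opposite strand. The signal listed for GEN1 equals 33.2% to 39.7% of that listed for SMC6. With it subtracted, an alternative chosen after the data were seen, SMC6 had 3179 and 4151.5 in control and 2675 and 3082 in auxin, which do not overlap, a log2 difference of -0.34. The subtraction takes all signal listed for GEN1 to be held once in SMC6, and its difference has no test.

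The microRNA genes MIR15B and MIR16-2 lie on the plus strand within SMC4, and their mature products are shown because these 2 rows of the table hold signal of the SMC4 span. The sequences are from RefSeq, GRCh38.p14, chromosome 3, 160404607 to 160404628 for miR-15b-5p and 160404754 to 160404775 for miR-16-5p, with the seed (bases 2 to 8) in capitals.
hsa-miR-15b-5p: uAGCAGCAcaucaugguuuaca
hsa-miR-16-5p: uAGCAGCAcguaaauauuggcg
Both carry the same seed. MIR15B had a scaled signal of 22.0 and 29.7 in control and 19.6 and 17.97 in auxin, which do not overlap, and differed by -0.43 on the log2 scale (SE 0.47, limma adjusted p = 0.882). MIR16-2 had 5.08 and 11.3 in control and 9.82 and 6.74 in auxin, which overlap, and a log2 fold change of 0.084 (limma adjusted p = 0.993). Their signal is low and cannot be told apart from that of SMC4, so it does not measure the mature microRNAs.

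The nearest tested genes on either side of the 10 were also read, 20 in all, since loss of cohesin removes loops that span neighbouring genes. Of these, 9 had a log2 fold change below 0 (48.7% of tested genes) and 1 was called (0.732% of tested genes). The called gene was KLF9, a Krüppel-like transcription factor gene 29.7 kb from the 3′ end of SMC5 on the opposite strand. KLF9 had a scaled signal of 302 and 355 in control and 677 and 1008 in auxin, both auxin libraries above both controls, and rose by 1.33 on the log2 scale (SE 0.23, limma adjusted p = 0.0334). Its limma adjusted p was over 0.05 on the deposited scale (0.334) and when control replicate 1 (0.0709), control replicate 2 (0.0638) or auxin replicate 2 (0.103) was left out. On the other side of SMC5, 111 bases from its start, SMC5-AS1 is transcribed away from it and had 1290.2 and 1439 in control and 1303 and 1437 in auxin, with a log2 fold change of 0.0061 (limma adjusted p = 0.997). VPS26B, which starts 703 bases from the start of NCAPD3 and runs the other way, had a log2 fold change of -0.028 (limma adjusted p = 0.99), against -0.50 for NCAPD3. Other neighbours lay further from 0 without being called. Among them were ITPRIPL1 beside NCAPH (-0.57, limma adjusted p = 0.255) and VSNL1 beside SMC6 (-0.57, limma adjusted p = 0.331). NIPSNAP3A, 606 kb from SMC2, was at 0.51 (limma adjusted p = 0.392). Whether these neighbours differ from the genes beside them was not tested.

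The remaining subunits and loaders of SMC5/6 were read as a list of 7 genes: NSMCE1, NSMCE2, NSMCE3, NSMCE4A, EID3, SLF1 and SLF2. All were tested, none was called, 6 were below 0 and the median log2 fold change was -0.076. The smallest p belonged to SLF1, which recruits SMC5/6 to sites of DNA damage. SLF1 had 3411 and 4117 in control and 2381 and 2539 in auxin, groups well apart, with a log2 fold change of -0.61 (SE 0.15, interval -0.95 to -0.26, limma adjusted p = 0.138). SLF2, its partner, had 6321 and 6768 in control and 5492 and 5544 in auxin, also apart, at -0.25 (limma adjusted p = 0.58). The 4 NSMCE genes, which encode the E3 ligases and the kleisin with its partner, lay between -0.091 and -0.041. EID3, a relative of the kleisin NSMCE4A, was the 1 gene of the list above 0, at 0.60 (limma adjusted p = 0.174). EID3 lies wholly inside TXNRD1, the gene of a thioredoxin reductase, on the same strand. TXNRD1 was called at 0.49 (limma adjusted p = 0.0334), so the signal of EID3 cannot be told apart from that of TXNRD1. SLF2, EID3 and TXNRD1 are named after their values were seen.

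Condensin regulators and mitotic chromosome partners formed a list, of which 13 genes are given here: MCPH1, KIF4A, TOP2A, TOP2B, MKI67, CDK1, CCNB1, PLK1, AURKA, AURKB, INCENP, BIRC5 and CDCA8. None was called, 9 were above 0 and 4 below, and the median log2 fold change was 0.091. The smallest p belonged to MCPH1, whose protein microcephalin keeps condensin II from acting before mitosis. MCPH1 had 23794 and 30100.0 in control and 17316 and 22650.0 in auxin, both auxin libraries below both controls. Its log2 fold change was -0.43 (SE 0.15, interval -0.77 to -0.098, limma adjusted p = 0.306), and it was -0.63 without auxin replicate 2. Leaving out auxin replicate 1 gave -0.23, and leaving out control replicate 2 gave -0.27. The span of MCPH1 overlaps 6 genes of the table, among them the opposite-strand genes ANGPT2 (-0.41) and MCPH1-AS1 (-0.49). TOP2A, the topoisomerase of mitotic chromosomes, lay at 0.021 (limma adjusted p = 0.994), and AURKB, INCENP, BIRC5 and CDCA8, the chromosomal passenger complex, between -0.038 and 0.22, all 5 named after their values were seen. The median of the list turned to -0.10 when control replicate 1 was left out and to -0.069 when auxin replicate 2 was.

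Other SMC-type ATPases formed a list of 5 genes, SMC1A, SMC1B, SMC3, SMCHD1 and RAD50. None was called, 4 were below 0, and the median log2 fold change was -0.16. The smallest p belonged to SMCHD1, which acts in X inactivation, with 15435 and 17695 in control and 12438 and 12981 in auxin. Its groups were apart, with a difference of -0.38 on the log2 scale (SE 0.12, limma adjusted p = 0.233), and its span overlaps the opposite-strand gene AP001011.1, at -0.38. SMC3, a cohesin ATPase named after its value was seen, had 5008 and 6687 in control and 3962 and 4644 in auxin, at -0.43 (limma adjusted p = 0.378), or -0.22 without control replicate 2. With all 4 libraries and among the ATPases of condensin, cohesin and SMC5/6, SMC2 (-0.45) and SMC3 (-0.43) had the lowest log2 fold changes, SMC6 (-0.28) and SMC5 (-0.19) followed, and SMC1A (-0.16), SMC4 (-0.15) and SMC1B (0.10) stood above them, with intervals that overlap throughout.

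**Figure D5:**
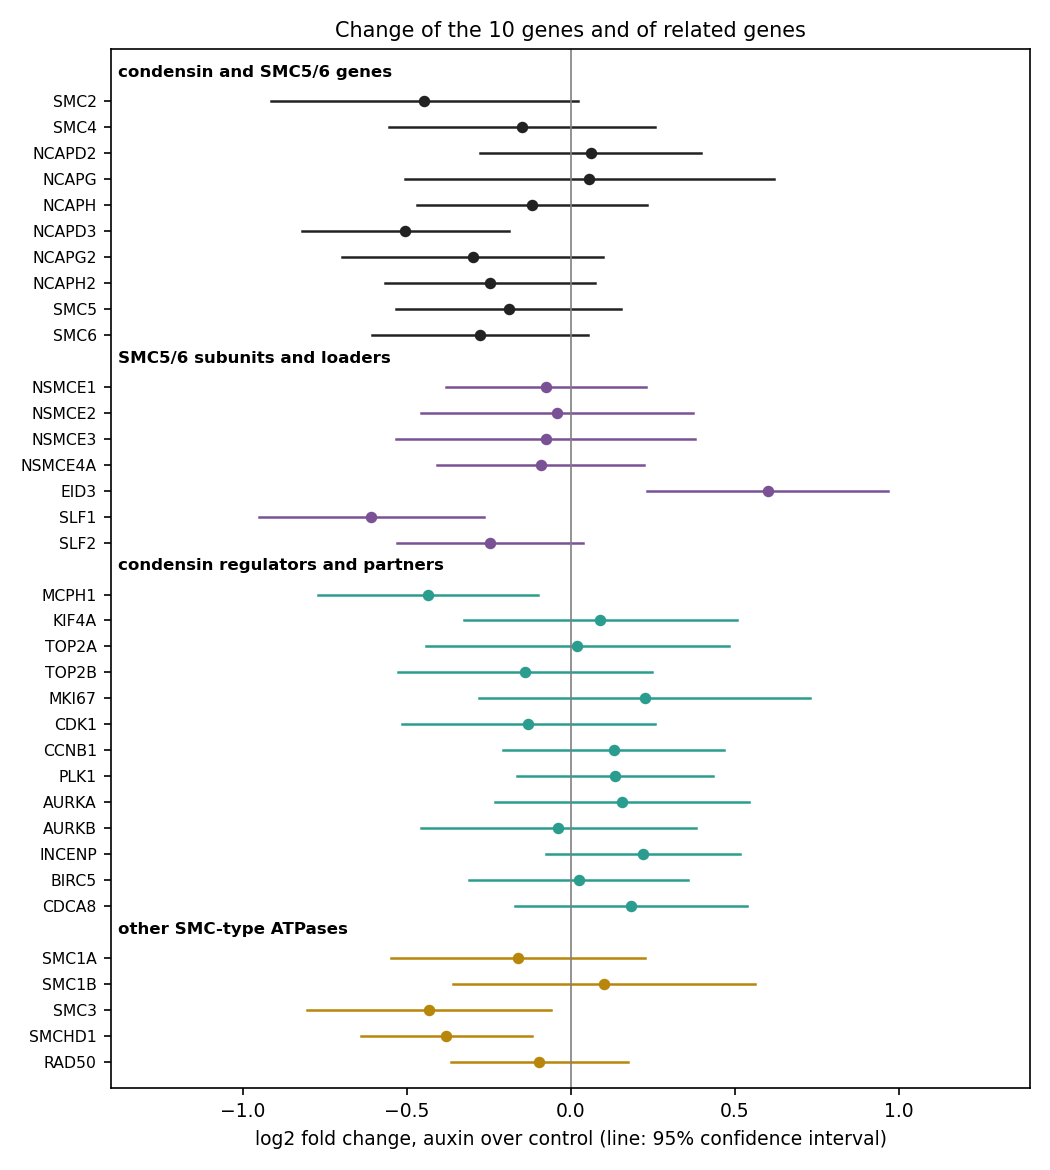
Log2 fold change of auxin over control (horizontal axis) with its 95% confidence interval from limma, for the 10 genes and for the 3 lists of related genes. The intervals of NCAPD3, EID3, SLF1, MCPH1, SMC3 and SMCHD1 do not include 0 before adjustment for the number of genes tested, and no gene shown passed the adjusted threshold.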

How the data were processed

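EU-labelled RNA from 2 control and 2 auxin libraries was read from 1 deposited table. Per the labels' protocols, labelled RNA of fly S2 cells was added before capture. Trimmomatic 0.39, Bowtie2 2.4.5 and deepTools 3.5.1 and the builds hg38 and dm6 are listed in the submitters' processing notes. Counting, strand use, annotation and scaling are not given in the sources used here. The authors deposited a signal per gene and library, in which low values are whole multiples of 1 step per library. Genes over 10 kb hold 2 or 3 steps far more often than 1, and what 1 step stands for is not known. For this reason no count model was used, and depth is unknown. Gene starts count from 0 and are printed 1 higher. Start and end of 7 of the 10 genes equal those of RefSeq on GRCh38.

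Tested genes had a summed value of 15 or more and, in 2 or more libraries, a value equivalent to 10 at the median library total. Scaling used trimmed means of M-values (30% and 5% trimmed), and log2(value + 1) was fitted with limma 3.58.1 in R 4.3.3 (eBayes with an intensity trend, Benjamini-Hochberg adjustment, threshold 0.05). Log2 fold changes on this scale understate the change of low genes. The procedure was run on simulated data with noise drawn independently for each library, and no result given here rests on that run. Subunit ratios were compared by exact permutation. The alternatives were 2 other scalings, the deposited scale, no filter, a mean of at least 50, pseudocounts of 0.1 and 10, a replicate block, other thresholds and leaving out each library. Members and lists were chosen with earlier results of these data known. Named genes were the 10 members, the genes overlapping or next to them, and in each list those called and that with the smallest p; others given with values were named after these were seen. One gene of the condensin regulators and partners is not reported here. Tables and figures used Python 3.11.15, pandas 2.3.3 and matplotlib 3.10.9.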

Additional observations from a re-analysis of the deposited data

How the results depend on the processing

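No member was called with median-ratio factors, library sizes or the deposited scale in place of TMM, or with no filter, a mean of at least 50, pseudocounts of 0.1 and 10, an adjusted p under 0.01 or with any 1 library left out. At an unadjusted p under 0.05 there was 1 (NCAPD3). No label ties equal replicate numbers to a common batch, and only 2 pairs exist. Across 39464 genes, which are not independent, replicate 2 minus replicate 1 in control had a Pearson's r of 0.231 with the same difference in auxin, and of 0.462 across the 29158 with a mean of at least 50, which hold all 10 members. With the replicate block, 3 members passed the limma threshold, all lower with auxin: NCAPD3 (adjusted p = 5.12e-05), SMC2 (0.00696) and NCAPG2 (0.0393). From the lists of related genes, SLF1 (limma adjusted p = 3.08e-06), EID3 (3.93e-05), MCPH1 (0.000124), SMC3 (0.000985) and SMCHD1 (0.00175) passed too. Block p-values of the other list genes were not read. In this fit 10.8% of tested genes were called (4273, among them all 289). Its p-values equal those of a normal distribution, so they rest on a spread pooled across genes and not on each gene's own. The count over all genes was 55 on the deposited scale (48 shared with the 289), 82 at an adjusted p under 0.01, and 132 to 681 with 1 library left out. The cause of these differences was not tested.

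Directions of single genes turned when 1 library was left out, with ranges of -0.41 to 0.12 for SMC4, -0.11 to 0.24 for NCAPD2, -0.37 to 0.49 for NCAPG, -0.26 to 0.034 for NCAPH and -0.38 to 0.015 for SMC5. Leaving out 1 library, the median log2 fold change ranged from -0.52 to -0.12 for condensin II, -0.15 to -0.061 for the SMC5/6 subunits and loaders, -0.10 to 0.20 for condensin regulators and partners and -0.39 to -0.035 for the other SMC-type ATPases. No scaling, filter or pseudocount turned the direction of a member. The depth in reads is unknown, and with 2 libraries per group the 95% intervals of the members are 0.63 to 1.12 wide on the log2 scale.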
